A study of Mus musculus with 9 samples.

Results

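The 48 genes described here encode the vacuolar proton pump (V-ATPase) and a selection of lysosomal enzymes, cofactors and membrane proteins. They were chosen for their function and matched by gene symbol, with earlier results of these data known, and each named exactly 1 of the 24487 rows of the expression table. V-ATPase genes (18) and the other lysosomal genes (30) were kept apart. RNA sequencing was done on 5 libraries of whole midbrain and 4 libraries of midbrain dopaminergic neurons, all from mice of the C57BL/6 strain background. The labels name no treatment, transgene, age or animal for either group, and give no method for isolating the dopaminergic RNA. The table's title uses the term bacTRAP, the usual name for capturing tagged ribosomes from a chosen cell type. If that was done, RNA on ribosomes was set against RNA of the whole tissue, and the method of isolation cannot be told apart from the cell type. The labels do not tie libraries to separate animals. All p-values therefore reflect spread among these libraries alone, and that spread may be technical. Whole midbrain also contains dopaminergic neurons, so the groups are a part and a whole rather than separate tissues.

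The V-ATPase is a rotary machine. Its V1 sector on the cytosolic side hydrolyses ATP, and the rotation drives protons through the V0 sector in the membrane. The acidity it makes activates the hydrolases of the lysosome, which digest proteins, glycans and lipids. In neurons the same pump acidifies synaptic vesicles, and the proton gradient powers the loading of transmitter, including dopamine through the vesicular monoamine transporter.

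Values are FPKM, fragment counts scaled for gene length and sequencing depth. Total FPKM per library was 309275 to 409130 in whole midbrain and 506466 to 521822 in the dopaminergic libraries, and the depth estimated from single-exon genes was 16.5 to 33.9 and 48 to 63.4 megareads. That estimate assumes a mean fragment of 200 bases and is rough, and the number of libraries limits the precision of each value below. Whole midbrain library 2 stood apart, with a Pearson's r of 0.903 to 0.906 across genes with the rest of its group. It was above the other 4 whole midbrain libraries for 29 of the 48 genes and below them for 14. All 8 dopaminergic markers rose, and their summed level was 209 to 241 FPKM in whole midbrain and 3731 to 4156 in the dopaminergic libraries.

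On the FPKM scale most V-ATPase genes were higher, and most other lysosomal genes lower, in dopaminergic neurons. In all, 11 of 18 V-ATPase genes were higher and 3 were lower by limma on log2(FPKM + 1), at a Benjamini-Hochberg adjusted p under 0.05. Of the 30 other lysosomal genes 2 were higher and 20 were lower. Over the 13106 genes tested the same rule called 38.3% higher and 36.0% lower, against 61.1% of the V-ATPase genes called higher and 66.7% of the lysosomal genes called lower. The median log2 difference was 0.70 over the V-ATPase genes, -0.62 over the lysosomal genes and 0.04 over all genes tested. The groups did not overlap, with dopaminergic libraries higher, for 9 V-ATPase genes and 2 lysosomal genes, against 32.6% of all genes. They did not overlap in the other direction for 3 V-ATPase genes and 20 lysosomal genes, against 31.8% of all genes.

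Other scalings changed these counts. Quantile normalization gave 5 V-ATPase genes higher and 6 lower, and rescaling to TPM gave 7 and 7. The quantile counts are 27.8% and 33.3% of the V-ATPase genes, against 38.1% and 31.3% of all genes. The larger share of V-ATPase genes called higher was thus absent after quantile normalization. For the lysosomal genes quantile normalization gave 3 higher and 20 lower, and TPM gave 0 higher and 28 lower. TPM also moved the median of all genes to -0.55, and called 2248 genes higher (17.2%) and 7393 lower (56.4%), against 5014 and 4717 on the FPKM scale. Relative to the median of all genes, 11 of 18 V-ATPase genes and 4 of 30 lysosomal genes lay above it on both the FPKM and the TPM scale. After quantile normalization the numbers were 5 of 18 and 4 of 30. The median of all genes was 0.11 there and 0.11 with a correction for exonic length or with median centring.

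**Figure D1:**
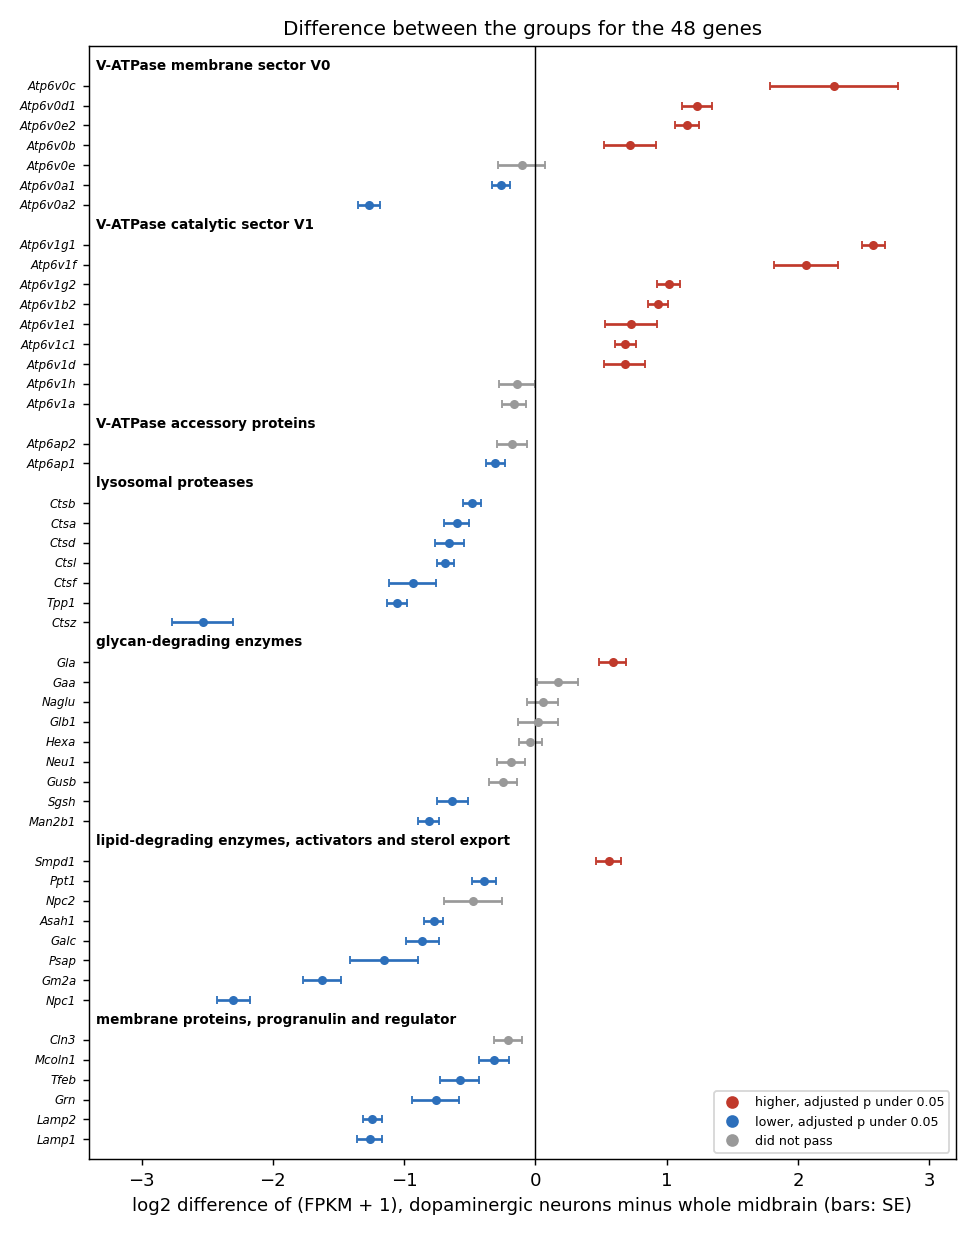
Difference between dopaminergic neurons and whole midbrain on the log2(FPKM + 1) scale for each of the 48 genes, grouped by role, with bars for the standard error. V-ATPase genes of both sectors lie mainly to the right of 0, and proteases, lipid enzymes and membrane proteins mainly to the left.

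Lysosomal genes are known for a shared promoter element, an E-box bound by transcription factors of the TFEB family. RefSeq promoters (GRCm38.p6, the same assembly as mm10) were given for 40 of the 48 genes, and the 250 bases before each start were searched on both strands. TCACGTG (read as CACGTGA on the other strand) was found in 12 of 40 members, 30%, and in 968 of 27025 genes, 3.58%. It was in 2 of 13 V-ATPase promoters and in 10 of 27 lysosomal promoters. The core CACGTG, which TCACGTG includes, was in 14 of 40 members (35%) and in 6.86% of all genes. Of the 12 genes with TCACGTG, 2 were called higher, 5 lower and 5 neither on the FPKM scale. Over all genes tested 38.3% were higher and 36.0% lower. The 2 higher, Atp6v0b and Gla, lost their call under TPM. Of the 5 lower, Mcoln1 lost its call with the correction for exonic length and Sgsh after quantile normalization. A match describes the letters of this window, and binding was not measured. The stretches below show the element in genes that rose, fell or did neither, with the match in capitals. They come from the genes whose stretch lay outside every annotated exon and outside the gene's own span. Introns of other genes were not checked.

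Atp6v0b, higher, chr4:117887335-117887391, minus strand: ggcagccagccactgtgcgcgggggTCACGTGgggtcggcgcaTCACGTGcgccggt
Ctsd, lower, chr7:142388041-142388077, minus strand: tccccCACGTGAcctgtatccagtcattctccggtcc
Lamp1, lower, chr8:13159074-13159130, plus strand: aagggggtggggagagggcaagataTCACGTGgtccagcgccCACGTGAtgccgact
Glb1, neither, chr9:114401004-114401060, plus strand: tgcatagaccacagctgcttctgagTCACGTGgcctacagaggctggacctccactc
Gaa, neither, chr11:119267797-119267853, plus strand: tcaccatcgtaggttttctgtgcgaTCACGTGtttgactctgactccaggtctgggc
Atp6v1a, neither, chr16:44139359-44139416, minus strand: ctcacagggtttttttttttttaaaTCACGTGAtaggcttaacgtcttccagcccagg

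In the membrane sector V0, 4 of 7 genes rose, 2 fell and Atp6v0e did not pass the test on the FPKM scale. TPM gave 3 higher and 3 lower, Atp6v0e among the latter, and quantile normalization 3 higher and 2 lower. Over all genes 38.3% were higher and 36.0% lower on the FPKM scale. Under TPM these shares were 17.2% and 56.4%, and after quantile normalization 38.1% and 31.3%. Atp6v0c encodes the proteolipid of the proton-carrying rotor ring (chromosome 17, 24163866 to 24169429, mm10, minus strand). Its FPKM was 37.7, 4.87, 30.5, 30.3 and 32.9 in whole midbrain libraries 1 to 5 and 110.3, 107, 114 and 127 in dopaminergic libraries 1 to 4. Every dopaminergic library was above every whole midbrain library, and whole midbrain library 2 was far below its own group. The rise was 2.28 on the log2 scale (SE 0.49, limma adjusted p = 0.0016), and 1.77 without that library. Atp6v0d1, the subunit that couples the ring to the central stalk (chromosome 8, 105524470 to 105566040, minus strand), was at 93.0, 133, 98.6, 101 and 92.3 FPKM in whole midbrain and at 241, 240.1, 252 and 236 in the dopaminergic libraries. Here the groups lay far apart and the dopaminergic values were close together, with a rise of 1.23 (SE 0.11, limma adjusted p = 3.8e-06).

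Atp6v0b, the other ring proteolipid, whose promoter stretch is shown above with a pair of matches, had a mean of 108 ± 37.6 FPKM (SD, n = 5) in whole midbrain and 172 ± 18.9 (SD, n = 4) in dopaminergic neurons, a rise of 0.72 (limma adjusted p = 0.0075). Its groups overlapped through whole midbrain library 2, at 175 FPKM, and the call was lost under TPM, quantile normalization and the length correction. The exons of Atp6v0b share 243 bases with a gene on the opposite strand, and since the handling of strand is not given, reads of such a pair cannot be told apart.

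The subunits a1 and a2 are alternative forms of the arm that holds the proton channel. Both fell. Atp6v0a2, a form known from endosomes and the Golgi (chromosome 5, 124629052 to 124724455, plus strand), was at 10.7, 10.7, 11.3, 11.9 and 11.9 FPKM in whole midbrain and at 3.48, 4.59, 4.30 and 4.13 in dopaminergic neurons. Its groups stood well apart, and it fell by 1.27 on the log2 scale (SE 0.08, limma adjusted p = 3.5e-07). Its exons share 663 bases with a gene on the opposite strand. Atp6v0a1, the form that predominates in neurons and on synaptic vesicles (chromosome 11, 101009452 to 101063717, plus strand), was at 77.1, 68.5, 80.0, 74.2 and 78.9 FPKM against 63.1, 61.8, 62.3 and 64.3. These groups also did not overlap, but the difference was small, a fall of 0.26 (SE 0.07, limma adjusted p = 0.0060), and the call was lost with the length correction (log2 range over all alternatives -0.91 to -0.10).

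Subunit e, a small membrane protein of V0, also has a pair of genes. Atp6v0e2 (chromosome 6, 48537569 to 48541800, plus strand) was at 86.7, 91.7, 84.7, 73.6 and 79.3 FPKM in whole midbrain and at 168, 183, 199.6 and 193 in dopaminergic neurons. That is a rise of 1.15 (SE 0.09, limma adjusted p = 1.2e-06) with no overlap. Atp6v0e (chromosome 17, 26676396 to 26699646, plus strand) was at 16.5, 29.9, 16.3, 18.9 and 18.4 FPKM against 14.6, 17.5, 18.3 and 22.7. The groups overlapped and the difference of -0.11 did not pass (limma adjusted p = 0.61).

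In the catalytic sector V1, 7 of 9 genes rose, none fell, and Atp6v1a and Atp6v1h did not pass the test on the FPKM scale. Over all genes 38.3% were higher and 36.0% lower on that scale. Quantile normalization, however, gave 2 genes higher (Atp6v1f and Atp6v1g1) and 2 lower (Atp6v1a and Atp6v1h), against 38.1% and 31.3% of all genes. Of the whole set of 48, Atp6v1g1 showed the largest rise. It encodes the widely expressed form of subunit G, part of the outer stalks that keep the catalytic head from turning (chromosome 4, 63544765 to 63550701, plus strand). FPKM was 56.8, 47.6, 59.9, 61.5 and 57.4 in whole midbrain and 334, 333, 339 and 357 in dopaminergic neurons. The gap between groups far exceeded the spread within either, with a 6.02-fold higher mean and a log2 rise of 2.57 (SE 0.09, limma adjusted p = 6.2e-09).

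Atp6v1g2, the form of subunit G found mainly in neurons (chromosome 17, 35236596 to 35238768, plus strand), had the highest FPKM of the 18 V-ATPase members in both groups. It was at 239, 259, 243, 219 and 227 FPKM in whole midbrain and at 460.0, 459, 504 and 500.3 in dopaminergic neurons. All dopaminergic libraries were higher, a rise of 1.02 (SE 0.09, limma adjusted p = 2.6e-06), but its value after quantile normalization was -0.02. Its exons share 144 bases with Nfkbil1 on the opposite strand. Atp6v1f, a subunit of the central rotor stalk (chromosome 6, 29467783 to 29470509, plus strand), was at 85.3, 189.9, 76.3, 78.6 and 82.8 FPKM against 379.8, 387, 424 and 424. Even whole midbrain library 2, the highest of its group, was below every dopaminergic library, and the rise was 2.06 (SE 0.25, limma adjusted p = 2.7e-05).

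The rest of V1 split between rises and no call. Atp6v1b2, the nucleotide-binding B subunit of the head, rose from 162 ± 4.02 FPKM (SD, n = 5) to 311 ± 19.2 (SD, n = 4), a log2 difference of 0.94. Atp6v1c1, a subunit that links the head to the stalks, rose by 0.69, and the rotor subunit Atp6v1d rose by 0.68. Atp6v1e1, which pairs with subunit G in the outer stalks, rose by 0.73, with groups that overlapped through whole midbrain library 2 at 263 FPKM. After quantile normalization all 4 lost their call, with Atp6v1b2 at 0.06 and the last 3 between -0.16 and -0.02, and those 3 also lost it under TPM. Atp6v1a, the subunit that hydrolyses ATP, was at 115 ± 11.2 FPKM in whole midbrain and 102 ± 7.36 in dopaminergic neurons (log2 difference -0.16, limma adjusted p = 0.13). Atp6v1h, a regulator of the assembled enzyme, was at 55.8 ± 11.6 and 49.97 ± 4.49 FPKM (log2 difference -0.14, limma adjusted p = 0.37). The partner subunits A and B of the catalytic head, present in equal numbers in the enzyme, thus had mean FPKM of 115 and 162 in whole midbrain and of 102 and 311 in dopaminergic neurons.

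**Figure D2:**
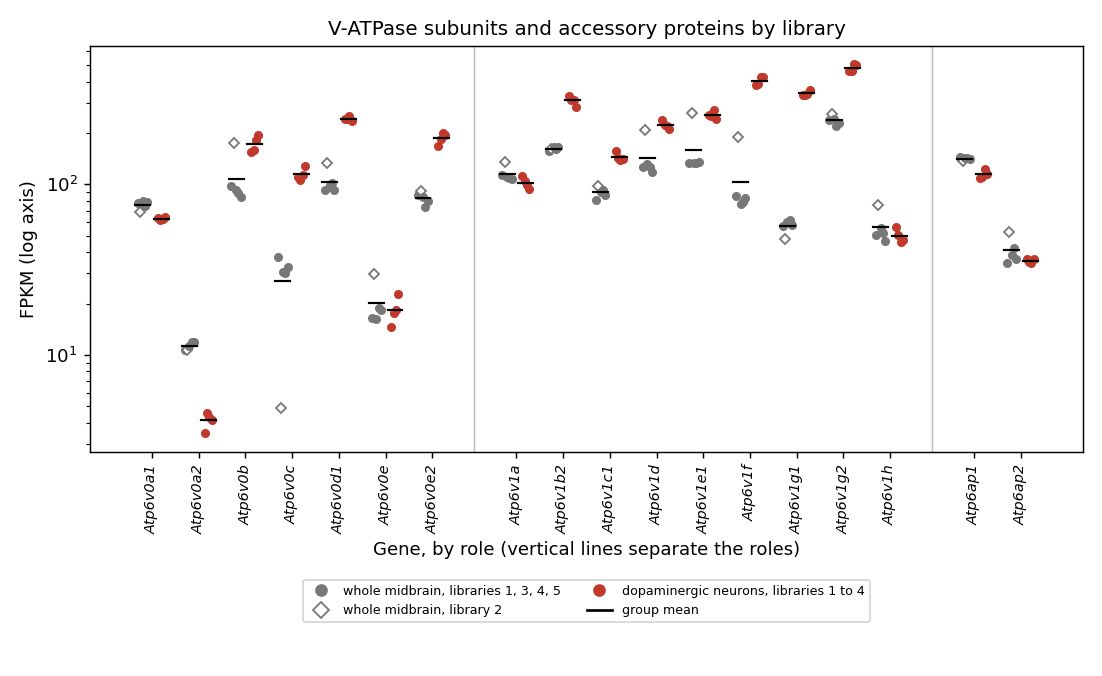
FPKM of each V-ATPase gene in each of the 5 whole midbrain and 4 dopaminergic libraries, on a log axis, with group means. Atp6v1g1, Atp6v1f and Atp6v0c show the widest gaps, and whole midbrain library 2 is the low point for Atp6v0c at 4.87 FPKM.

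Neither accessory protein rose. Atp6ap1, a luminal protein of the V0 sector that helps its assembly (chromosome X, 74297097 to 74304721, plus strand), was at 145, 136, 142, 142 and 140.5 FPKM in whole midbrain and at 109, 110.2, 123 and 115 in dopaminergic neurons. The groups did not overlap, and it fell by 0.30 (SE 0.07, limma adjusted p = 0.0029). Atp6ap2, the prorenin receptor, was at 40.9 ± 7.16 FPKM in whole midbrain and 35.6 ± 0.950 in the neurons and did not pass (log2 difference -0.18, limma adjusted p = 0.18). It was called lower under TPM (-0.82), after quantile normalization (-0.59) and with the length correction (-0.34).

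All 7 lysosomal proteases fell, with a median of -0.68, against 36.0% of all genes called lower. All 7 did so without overlap between the groups, against 31.8% of all genes. All 7 also kept their call under every alternative scaling, of which TPM called 56.4% of all genes lower. Ctsz, a cysteine carboxypeptidase (chromosome 2, 174427494 to 174438992, minus strand), fell most. It was at 9.33, 17.9, 7.63, 7.31 and 9.35 FPKM in whole midbrain and at 1.34, 0.475, 0.838 and 0.889 in dopaminergic neurons. The dopaminergic values were low in every library, the whole midbrain mean was 11.7-fold higher, and the fall was 2.53 on the log2 scale (SE 0.23, limma adjusted p = 4.2e-06). Tpp1, a tripeptidyl peptidase whose loss causes a childhood neuronal ceroid lipofuscinosis (chromosome 7, 105744847 to 105752207, minus strand), was at 22.2, 25.3, 22.4, 23.1 and 21.2 FPKM against 9.77, 10.3, 11.5 and 10.5. That fall of 1.05 (SE 0.08, limma adjusted p = 6.6e-07) came with little spread in either group.

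Ctsd, the aspartic protease cathepsin D, had the highest FPKM of the proteases in both groups (chromosome 7, 142375916 to 142387870, minus strand). Its FPKM was 131, 164, 122, 123 and 128 in whole midbrain and 77.9, 83.0, 96.6 and 79.1 in dopaminergic neurons. All dopaminergic libraries were lower, with a fall of 0.66 (SE 0.11, limma adjusted p = 0.00031), but its exons share 808 bases with another gene of the same strand, Gm49369. Ctsb and Ctsl, abundant cysteine cathepsins, fell by 0.48 and 0.68, and Ctsf, another of that family, by 0.93. Ctsa, a carboxypeptidase that also protects β-galactosidase and neuraminidase, fell by 0.60. The order of mean FPKM began with Ctsd, Ctsb and Ctsl and ended with Ctsz in both groups.

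The glycan-degrading enzymes differed from the proteases in that 6 of 9 did not pass the test, with a median of -0.04. Of the 9, 1 was higher and 2 lower, against 38.3% and 36.0% of all genes. Under TPM 8 of the 9 were lower, with a median of -0.64. TPM called 56.4% of all genes lower, and their median was -0.55. Gla, α-galactosidase A, whose loss causes Fabry disease (chromosome X, 134588169 to 134601005, minus strand), was at 4.68, 4.55, 4.31, 3.78 and 4.06 FPKM in whole midbrain and at 5.65, 8.10, 7.45 and 6.67 in dopaminergic neurons. Every dopaminergic library was higher, a rise of 0.59 (SE 0.10, limma adjusted p = 0.00046) that lost its call under TPM. Man2b1, lysosomal α-mannosidase (chromosome 8, 85083269 to 85098739, plus strand), was at 8.06, 8.21, 7.71, 8.74 and 7.0 FPKM against 3.99, 4.46, 3.91 and 3.99, a fall of 0.81 (SE 0.08, limma adjusted p = 6.2e-06) with no overlap. Sgsh, a sulfatase of heparan sulfate breakdown (chromosome 11, 119343489 to 119355510, minus strand), was at 1.15, 1.90, 1.22, 1.60 and 1.57 FPKM against 0.545, 0.585, 0.507 and 0.753. These low values did not overlap and gave a fall of 0.63 (SE 0.12, limma adjusted p = 0.00066), but the value was 0.07 after quantile normalization. The exons of Sgsh share 955 bases with Card14 on the opposite strand.

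Gaa, acid α-glucosidase, which degrades glycogen (chromosome 11, 119267967 to 119285698, plus strand), had the highest FPKM of the glycan enzymes. It was at 75.1, 116, 73.7, 65.7 and 71.1 FPKM in whole midbrain and at 78.6, 85.5, 97.8 and 93.6 in dopaminergic neurons. Without whole midbrain library 2 the groups do not overlap, and the difference changed from 0.17 (limma adjusted p = 0.34) to 0.31, which passed. Under TPM and after quantile normalization Gaa was instead called lower, at -0.47 and -0.46. The median of all genes was -0.55 under TPM and 0.11 after quantile normalization. Hexa, the α subunit of β-hexosaminidase (chromosome 9, 59539667 to 59565105, plus strand), was at 5.30, 6.69, 6.22, 5.53 and 6.19 FPKM against 5.28, 5.48, 6.39 and 6.06, a difference of -0.04 with overlapping groups (limma adjusted p = 0.71), though it was called lower under TPM and with the length correction. Its exons share 255 bases with Tmem202 on the opposite strand. Glb1, the lysosomal β-galactosidase, was at 8.52 ± 2.25 FPKM in whole midbrain and 8.48 ± 0.895 in the neurons. For Gusb, the β-glucuronidase, the means in that order were 4.94 and 4.01 FPKM, and for Neu1, the sialidase, 5.87 and 5.0. Naglu, another enzyme of heparan sulfate breakdown, was at 1.38 ± 0.168 and 1.49 ± 0.373 FPKM. None of these 4 passed on the FPKM scale with all libraries. Gusb was called lower without whole midbrain library 3 (-0.31) or dopaminergic library 2 (-0.29), and Naglu was called higher after quantile normalization (0.67) and lower under TPM (-0.43).

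Among the 8 lipid-degrading enzymes, activators and sterol exporters 6 fell, Smpd1 rose and Npc2 did not pass, against 36.0% of all genes lower and 38.3% higher. Npc1, the membrane protein that exports cholesterol from the lysosome (chromosome 18, minus strand), fell most. Its FPKM was 23.8, 16.9, 22.9, 24.9 and 24.8 in whole midbrain and 3.10, 4.16, 4.17 and 3.71 in dopaminergic neurons. The lowest whole midbrain library was still several times above the highest dopaminergic one, the whole midbrain mean was 5.99-fold higher, and the fall was 2.30 (SE 0.12, limma adjusted p = 1.0e-07). Its exons share 511 bases with Rmc1 on the opposite strand. Npc2, the soluble protein that hands cholesterol to Npc1 (chromosome 12, 84754559 to 84773112, minus strand), was at 19.5, 41.3, 18.2, 17.7 and 19.6 FPKM against 14.6, 14.97, 16.2 and 16.3. Its groups did not overlap, yet the difference of -0.48 did not pass (limma adjusted p = 0.071). Whole midbrain library 2 was far above the rest of its group. Without that library the difference was smaller, -0.26, and passed, as it did under TPM and after quantile normalization.

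Gm2a, the activator that presents ganglioside GM2 to hexosaminidase (chromosome 11, 55097985 to 55113028, plus strand), was at 14.6, 10.3, 12.8, 13.8 and 14.0 FPKM in whole midbrain and at 2.83, 3.03, 3.57 and 5.04 in dopaminergic neurons. No dopaminergic library came near the whole midbrain range, and the fall was 1.62 (SE 0.15, limma adjusted p = 3.4e-06). Smpd1, acid sphingomyelinase, whose loss causes Niemann-Pick disease types A and B (chromosome 7, 105554360 to 105558389, plus strand), was at 20.1, 21.9, 21.0, 20.5 and 20.8 FPKM against 25.7, 32.9, 37.0 and 29.9. Every dopaminergic library was higher, with a rise of 0.56 (SE 0.10, limma adjusted p = 0.00045), but the value under TPM was -0.06. Psap, the precursor of the saposins that help several lipid hydrolases (chromosome 10, 60277628 to 60302600, plus strand), had the highest FPKM of the lipid group. It was at 153, 369, 152, 146 and 147 FPKM in whole midbrain and at 74.9, 75.7, 84.1 and 85.8 in dopaminergic neurons. The groups did not overlap with or without whole midbrain library 2, and the fall was 1.15 (SE 0.26, limma adjusted p = 0.0022), or 0.89 without it. Galc, which degrades galactolipids of myelin, fell by 0.86, the ceramidase Asah1 by 0.77 and the depalmitoylating enzyme Ppt1 by 0.39.

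**Figure D3:**
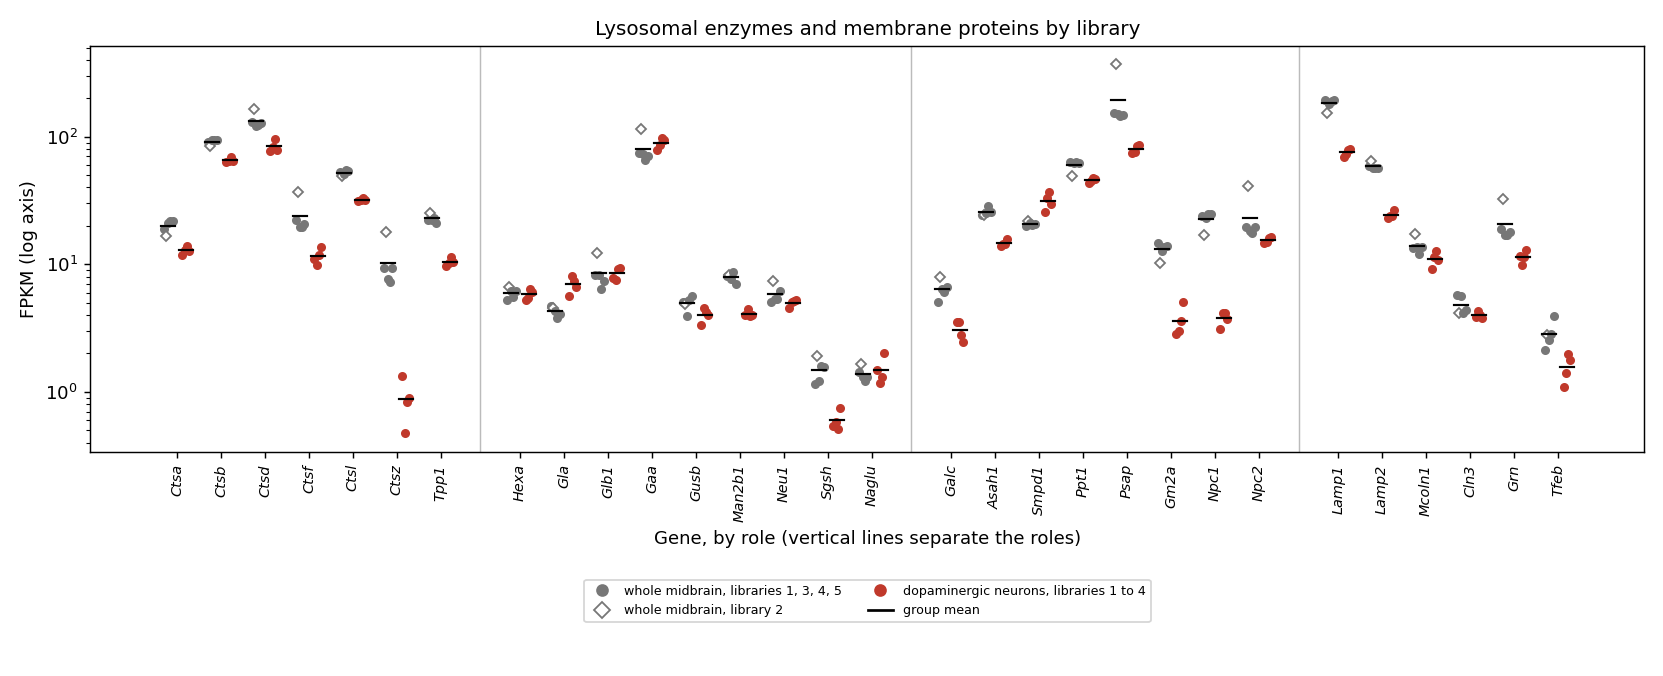
FPKM of each of the 30 lysosomal genes in each of the 5 whole midbrain and 4 dopaminergic libraries, on a log axis, with group means. Ctsz, Npc1 and Gm2a show the widest gaps below whole midbrain, and Gla and Smpd1 lie above it.

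Of the membrane proteins, progranulin and the regulator Tfeb, 5 of 6 fell and none rose, against 36.0% and 38.3% of all genes. Lamp1, a major glycoprotein of the lysosomal membrane, whose promoter stretch with a match on either strand is shown above (chromosome 8, 13159135 to 13175338, plus strand), was at 195, 153, 182, 191 and 194 FPKM in whole midbrain and at 69.8, 73.0, 78.7 and 80.4 in dopaminergic neurons. It fell by 1.26 (SE 0.09, limma adjusted p = 9.4e-07) with no overlap, and its exons share 249 bases with Grtp1 on the opposite strand. Lamp2, which also serves chaperone-mediated autophagy (chromosome X, 38401357 to 38456460, minus strand), was at 58.6, 64.5, 57.2, 56.9 and 56.9 FPKM against 23.0, 23.9, 23.8 and 26.5. Its fall of 1.24 (SE 0.07, limma adjusted p = 1.5e-07) was nearly the same size as that of Lamp1. Grn, the secreted lysosomal cofactor progranulin, fell by 0.76. Tfeb, a transcription factor of the E-box element, fell by 0.58, from a mean of 2.84 to 1.57 FPKM. Tfe3 and Mitf, of the same family, are in the signalling list below and differed in direction on the FPKM scale. Tfe3 rose by 0.87, from a mean of 7.07 FPKM in whole midbrain to 13.7 in dopaminergic neurons. Mitf fell by 0.56, from 2.07 to 1.07 FPKM. The call of Tfeb was lost after quantile normalization, at -0.10. Mcoln1, a lysosomal calcium channel, fell by 0.31 with overlapping groups (limma adjusted p = 0.029), a call lost in 5 of 19 alternatives, among them without dopaminergic library 1 or 4. Cln3, a membrane protein mutated in juvenile neuronal ceroid lipofuscinosis, was at 4.81 ± 0.792 FPKM in whole midbrain and 3.99 ± 0.229 in the neurons (log2 difference -0.21, limma adjusted p = 0.098), and among the 19 alternatives passed only without whole midbrain library 2 and under TPM.

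Within each library 6 ratios of (FPKM + 1) between related genes were formed, and their log2 values were compared by an exact permutation test over the 9 libraries, two-sided, whose smallest possible p is 0.01587. Each ratio below is that of (FPKM + 1), as a geometric mean over a group, and the added 1 pulls the ratios of low genes toward 1. The ratio of Atp6v1g2 to Atp6v1g1 was 4.14 in whole midbrain and 1.41 in dopaminergic neurons, a log2 difference of -1.56. The neuronal form of subunit G thus exceeded the widespread form in both groups, by less in the dopaminergic neurons. The ratio of Atp6v0e2 to Atp6v0e was 4.09 and 9.79, a difference of 1.26, and that of Atp6v0a2 to Atp6v0a1 was 0.160 and 0.0800, a difference of -1.0. Each of these 3 V-ATPase ratios had groups that did not overlap.

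Of the lysosomal ratios, that of Npc2 to Npc1 moved and that of the LAMP proteins did not pass. The ratio of (FPKM + 1) of Npc2 to that of Npc1 was 0.979 in whole midbrain and 3.47 in dopaminergic neurons, a log2 difference of 1.82. Each of the 4 ratios named so far gave the smallest exact p of 0.01587 (0.01905 adjusted over the 6 by the Benjamini-Hochberg method). Lamp2 to Lamp1 was 0.326 and 0.331, a difference of 0.02 with overlapping groups (exact permutation p = 0.873, the same after adjustment). Leaving out 1 library at a time moved that difference between -0.01 and 0.12.

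**Figure D4:**
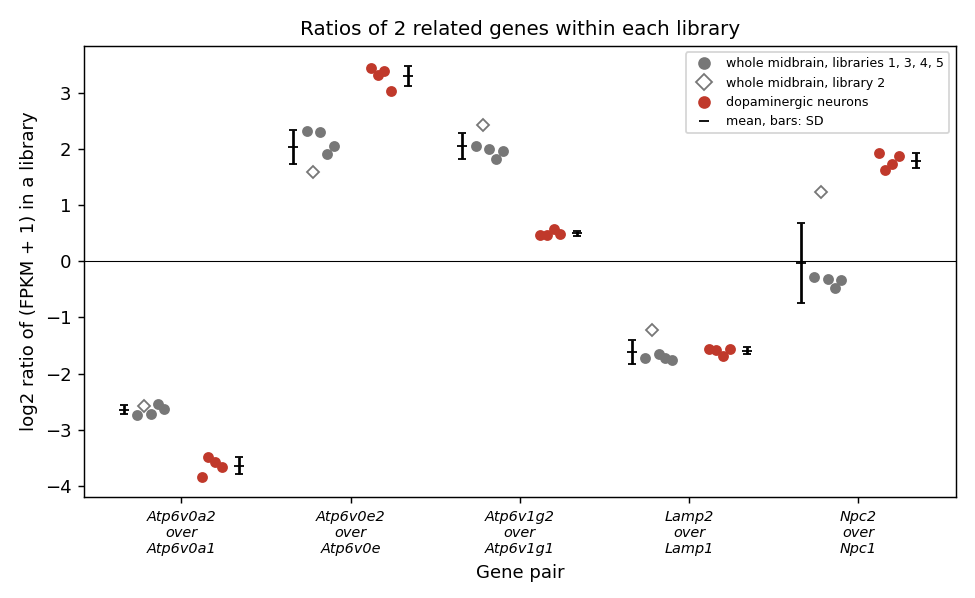
Ratios of 5 gene pairs within each library, as log2 of the ratio of (FPKM + 1), with group means. The groups separate for 4 ratios and overlap for Lamp2 to Lamp1.

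Summing FPKM over each set gives the balance of pump to lysosomal messages in a library, as a description in which the most abundant genes weigh most. The 18 V-ATPase genes summed to 1602 to 2138 FPKM in whole midbrain and to 3181 to 3346 in dopaminergic neurons. The 30 lysosomal genes summed to 1047 to 1372 and to 618 to 715 FPKM. The V-ATPase sum was 1.5 to 1.58 times the lysosomal sum in whole midbrain, library 2 included, and 4.68 to 5.22 times in the dopaminergic libraries. As a share of the FPKM of all rows, V-ATPase genes made up 0.516% to 0.532% of whole midbrain and 0.628% to 0.643% of dopaminergic neurons. The lysosomal share was 0.335% to 0.347% and 0.122% to 0.137%.

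**Figure D5:**
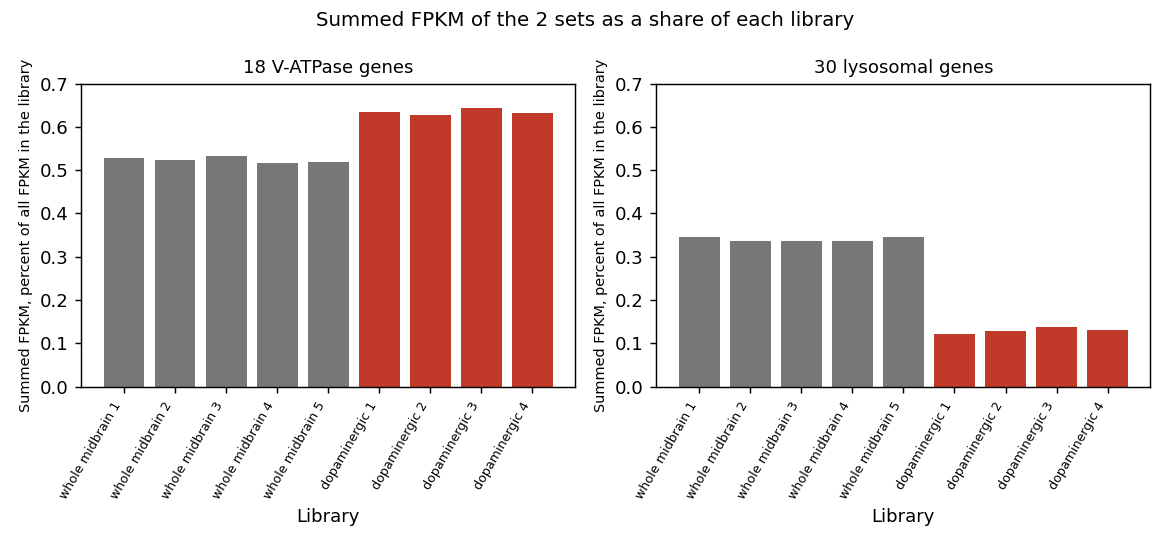
Summed FPKM of the 18 V-ATPase and the 30 lysosomal genes in each library as a percent of the FPKM of all rows. The V-ATPase share is 0.516% to 0.532% in whole midbrain and 0.628% to 0.643% in dopaminergic neurons, and the lysosomal share is 0.335% to 0.347% and 0.122% to 0.137%.

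Other genes of the same pathways were read from lists made by function. Of 12 other V-ATPase genes, many of them forms used in kidney or bone, 5 reached a mean of 1 FPKM. Of these 4 rose and 1 fell, against 38.3% and 36.0% of all genes. The rises were Rnasek, Tmem199, Ccdc115 and Vma21, none of them an alternative form of a subunit. Tcirg1, which fell, was the only such form tested. Under TPM 2 rose and 2 fell, against 17.2% and 56.4% of all genes. Rnasek, a small protein associated with the pump, was at 365, 271, 316, 332 and 362 FPKM in whole midbrain and at 1102, 1237, 1436 and 1366 in dopaminergic neurons, a rise of 1.96 (limma adjusted p = 3.4e-07). All dopaminergic libraries were higher, but its exons share 599 bases with Gm21988 on the same strand. Tcirg1, the a3 form of the V0 arm known from osteoclasts, was at 3.13, 7.23, 3.83, 3.34 and 4.82 FPKM against 0.318, 0.645, 0.336 and 0.274, and fell by 1.93 (limma adjusted p = 8.4e-06). All 3 forms of subunit a that were tested thus fell, while 4 of the other 5 V0 members rose.

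Of 29 other lysosomal hydrolases 26 were tested, with 1 higher, 21 lower and a median of -0.67. Over all genes tested 38.3% were higher and 36.0% lower, with a median of 0.04, the background for each list in this paragraph. Ctss, a cathepsin of microglia and other phagocytes, fell by 4.21 (limma adjusted p = 5.4e-09), from 48.4 ± 6.15 to 1.69 ± 0.506 FPKM. Ids, a sulfatase of glycosaminoglycan breakdown, rose by 0.22 (limma adjusted p = 0.024), from 109 ± 7.14 to 128 ± 6.32 FPKM with overlapping groups, and fell by 0.42 under TPM and by 0.51 after quantile normalization. Of 17 other lysosomal membrane proteins 16 were tested, with 3 higher and 12 lower. Laptm5, a protein of blood-derived cells and microglia, fell by 2.78, and Tmem192 rose by 0.85. Of 20 genes for mannose 6-phosphate sorting and lysosomal signalling 10 rose and 5 fell, with a median of 0.32. The rises were Lamtor1 to Lamtor5, Rraga to Rragd and Tfe3, all of the signalling part. The falls were the sorting genes M6pr, Igf2r and Sort1, and Mitf and Mtor. Under TPM 6 rose and 10 fell, with a median of -0.31. Over all genes TPM called 17.2% higher and 56.4% lower, with a median of -0.55. Lamtor2, of the Ragulator complex that anchors mTORC1 to the lysosome, rose by 1.74, and Sort1, the sorting receptor sortilin, fell by 1.27.

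Markers of other cells moved with the lysosomal genes. All 13 microglia markers fell, with a summed level of 187 to 253 FPKM in whole midbrain and 21.6 to 29.3 in dopaminergic neurons, and Ctss is in both that list and the hydrolases. The 9 astrocyte markers also fell, with sums of 1244 to 1451 FPKM in whole midbrain and 175 to 207 in the neurons. Most of the latter sum was Aldoc, at 141 to 158 FPKM in the dopaminergic libraries. The 9 oligodendrocyte markers fell too, with sums of 2864 to 3375 and 169 to 289. So did the 8 endothelial and mural markers, with sums of 111 to 159 and 2.05 to 3.66. No marker of these lists was at 0 in a dopaminergic library. The part of these cells in the lower level of the hydrolases and in the V-ATPase values was not tested. In such bulk RNA, fewer cells of a type and less RNA per cell cannot be told apart.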

How the data were processed

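RNA of 5 whole midbrain and 4 dopaminergic samples was sequenced. Per the labels, amplified cDNA was sequenced from single ends. The deposited values are FPKM made by the authors with TopHat2 2.0.8 and Cufflinks 2.1.1 on mm10, per the submitters' processing notes. The annotation used, and whether strand was kept, is not given in the sources used here. Deposited whole midbrain FPKM carry more digits than Cufflinks writes and dopaminergic FPKM do not. This difference coincides with the groups, and its effect cannot be told apart from theirs.

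The 48 members and the lists were chosen with earlier results of these data known. The 13106 genes whose mean reached 1 FPKM were fitted on log2(FPKM + 1) with limma 3.58.1 (R 4.3.3), with a mean-variance trend and 7 residual degrees of freedom. The test was two-sided with Benjamini-Hochberg adjustment over all genes tested and a threshold of 0.05. All log2 differences are on that scale, which understates the change of low genes. No count model was used. Values per library are given for the 2 largest called rises and the 2 largest called falls of each role group, its most abundant member and the genes of the ratios. Of the 6 ratios tested 1 is not reported here. The largest called rise and fall of each pathway list are named, and the other members follow by mean or difference. Coordinates are gene spans in the deposited table, with the first base numbered 1. Exon overlaps of at least 100 bases, read from GENCODE M21 and found for 16 of 48 members, are given for the genes described per library. The 260 symbols that name several rows (750 rows) were kept as separate rows. Alternatives numbered 19 and are given in the closing section. The fitting script was tested on simulated data. The rest used SciPy 1.17.1, pandas 2.3.3, NumPy 2.4.6 and matplotlib 3.10.9 under Python 3.11.15.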

Additional observations from a re-analysis of the deposited data

Results flagged for a closer look

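For each of the 48 genes, each group was checked for a library that stood far from the rest by Dixon's ratio of gap to range at the 95% level. Chance flags about 1 in 20 groups. Of 96 groups 20 had such a library, and 18 of the 20 were in whole midbrain library 2.

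In that library Atp6v0b was at 175 FPKM, Atp6v0d1 at 133, Atp6v0e at 29.9, Atp6v1a at 135, Atp6v1d at 208, Atp6v1e1 at 263 and Atp6v1f at 189.9, each above the other 4 whole midbrain libraries. The proton-ring gene Atp6v0c was the exception in the pump, at 4.87 FPKM against 30.3 to 37.7 in the others. Among lysosomal genes Ctsd was at 164 FPKM, Ctsf at 36.6, Ctsz at 17.9, Gaa at 116, Npc2 at 41.3, Lamp2 at 64.5 and Grn at 32.6, also above the rest. Psap was at 369 FPKM against 146 to 153. Ppt1, at 49.2 FPKM against 62.5 to 63.4, and Npc1, at 16.9 against 22.9 to 24.9, were below the rest. The cause was not tested.

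In the dopaminergic group 2 values stood apart. Atp6v1c1 was at 157 FPKM in library 1 against 139 to 142 in the others. Man2b1 was at 4.46 FPKM in library 2 against 3.91 to 3.99.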

How the results depend on the processing

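Alternatives comprised pseudocounts of 0.1 and 5, no filter, a minimum mean of 5 FPKM, quantile normalization, TPM, median centring, a correction for exonic length (loess span 0.5), no trend, the replicate block and leaving out each library. In all of them where a gene was tested, 5 V-ATPase rises (Atp6v0c, Atp6v0d1, Atp6v0e2, Atp6v1f and Atp6v1g1), 2 V-ATPase falls (Atp6v0a2 and Atp6ap1) and 17 lysosomal falls kept their call. Quantile normalization called 5 V-ATPase genes higher and 6 lower, and 38.1% and 31.3% of all genes. TPM called 7 and 7, and 0 lysosomal genes higher. Over all genes TPM gave 2248 higher and 7393 lower, and a minimum mean of 5 FPKM gave 2493 lower. The cause was not tested.

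Directions reversed after quantile normalization for Atp6v0b (-0.048), Atp6v1c1 (-0.018), Atp6v1d (-0.16), Atp6v1e1 (-0.084), Atp6v1g2 (-0.020), Hexa (0.13), Gaa (-0.46, called lower), Gusb (0.013), Neu1 (0.013), Sgsh (0.072) and Cln3 (0.055). They reversed under TPM for Glb1 (-0.59), Gaa (-0.47) and Naglu (-0.43), all 3 called lower, and Smpd1 (-0.064), with the length correction for Atp6v1h (0.19), Glb1 (-0.092) and Naglu (-0.094), and with median centring for Hexa (0.032). With a pseudocount of 0.1 the difference of Lamp2 to Lamp1 was -8.9e-05. Leaving out 1 library moved Atp6v0e between -0.21 and 0.043, Glb1 between -0.067 and 0.15, Naglu between -0.040 and 0.12 and Lamp2 to Lamp1 between -0.014 and 0.12. Without whole midbrain library 2, Gaa (0.31), Npc2 (-0.26) and Cln3 (-0.25) gained a call, and Sgsh fell under the filter.

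Libraries of the same number correlated at -0.05 to 0.02 in their deviations from the group means, and not every library correlated best with its own number. Correlations this weak show no pairing by number, and they cannot exclude one. With the number as a replicate block 11 V-ATPase genes were higher and 2 lower, 2 lysosomal genes were higher and 19 lower, and 4554 and 4355 of all genes were called. Glb1 was at -0.019 there, and the calls of Atp6v0a1 and Mcoln1 were lost. The table holds no counts, so depth limits low genes such as Naglu and Sgsh in a way that no interval here covers.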

Other observations

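The lysosome is also a platform for nutrient signalling, where the Ragulator complex and the Rag GTPases recruit mTORC1 with the V-ATPase as a partner. These 9 genes, already counted among the rises of the signalling list above, were picked out after their values were seen. Their values are thus a description. All 5 Ragulator genes (Lamtor1 to Lamtor5) and all 4 Rag genes (Rraga to Rragd) were higher in dopaminergic neurons by limma with Benjamini-Hochberg adjustment on the FPKM scale, with log2 differences of 0.50 to 1.74 and of 0.74 to 1.51. The same rule called 38.3% of all genes tested higher. Rragc was at 23.5, 18.2, 26.2, 24.1 and 25.9 FPKM in whole midbrain and at 69.1, 67.9, 68.7 and 67.6 in dopaminergic neurons. Lamtor1 was at 26.9, 39.9, 25.4, 26.6 and 26.9 FPKM against 87.0, 88.0, 100.0 and 99.7. Neither gene's groups overlapped. The exons of Lamtor1 share 600 bases with Lrrc51, and those of Rragc 264 bases with another gene, both on the opposite strand. Under TPM 3 of 5 Ragulator and 3 of 4 Rag genes were called higher and 0 lower, and the difference of Lamtor3 became -0.13 and that of Lamtor5 -0.04. Over all genes TPM called 17.2% higher and 56.4% lower. After quantile normalization 3 of 5 and 4 of 4 were higher, against 38.1% of all genes. Whether these genes differ from the V-ATPase or hydrolase genes was not tested.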
